A study of Mus musculus with 8 samples.

Results

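The genes described are those of interleukin 1 (IL-1), of the inflammasome and of inducible prostaglandin synthesis, 10 genes of the 19752 with a value on the array. They are the cytokine genes Il1a, Il1b, Il6 and Tnf, the antagonist gene Il1rn, the inflammasome genes Nlrp3, Casp1 and Pycard, and the enzyme genes Ptgs2 and Ptges. They were chosen by name, with earlier results of these data known, and each was read from the 1 probe set that carries its symbol alone.

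IL-1β is made as an inactive precursor, which caspase-1 cleaves once a sensor such as NLRP3 and the adaptor ASC have assembled into an inflammasome. IL-1α and IL-1β bind one and the same receptor, and the IL-1 receptor antagonist occupies it without signalling. Signalling through that receptor induces IL-6 and cyclooxygenase 2, which together with the prostaglandin E synthase supplies prostaglandin E2. In injured muscle the neutrophils, monocytes and macrophages that enter and then clear the damaged fibres are among the sources of these products.

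The samples were whole tibialis anterior muscles of old male C57BL/6 mice, whose age is 99 weeks in the labels and 22 months in the series' design text. Each muscle had been injured by cold, with a metal rod chilled in liquid nitrogen and pressed on for 8 s, and was taken 8 days later. The tested mice received rIL-33, a recombinant form of the alarmin cytokine interleukin-33, 2 µg into the peritoneal cavity on the days before and after injury, and the others carry the treatment label PBS. There were 4 rIL-33 and 4 PBS arrays (Affymetrix Mouse Gene 1.0 ST); in each group the genetic background of replicates 1 and 2 is labelled C57BL/6 and that of replicates 3 and 4 WT, with no source used here saying what separates the labels. Whether every array stands for a separate mouse is not stated. The p-values therefore reflect only how far these samples spread, which may be technical. All 8 muscles were injured, so the design holds no level of these genes in uninjured muscle.

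The values are log2 of intensities normalized by the authors, and differences are rIL-33 minus PBS. Array medians lay between 222.6 and 232.2 intensity units, and precision is limited by how few arrays there are. The 10 skeletal muscle markers had mean levels of 13.3 to 13.5 (log2) on the rIL-33 arrays and 13.3 to 13.4 on the PBS arrays, so the labelled tissue was present on every array. A gene whose mean over the 8 arrays lay under 6.65, the 25th percentile of all genes, was left out of the tests as dim. Of the 10 genes 7 were tested, while Il1a, Nlrp3 and Il6 were dim and are given as levels. On dim probe sets, stray signal makes folds look smaller. Because the tissue was whole muscle, fewer cells of a type and less RNA per cell cannot be told apart in any value below.

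Il1b and Ptgs2 were the members whose groups did not overlap. PBS replicate 4, the highest of all 8 arrays in 8 of the 10 genes, stood furthest above the other PBS arrays in Il1b and Il6. The sequences before the annotated starts of Il1b, Ptgs2 and Il6 are therefore shown, as RefSeq gives them for GRCm38.p6. Each covers 250 bases that end just before the start used. For Il1b that start lies inside the annotated gene span, chr2:129364569-129371164, so the end of its window does too. Capitals mark matches to 4 motifs searched on both strands: the TATA box (TATAAA), the C/EBP motif (TTNNGNAAT), the AP-1 motif (TGANTCA) and the NF-κB consensus. The Il1b window is chr2:129371140-129371389 on the minus strand, the Il6 window chr5:30012864-30013113 on the plus strand and the Ptgs2 window chr1:150099781-150100030 on the plus strand.
Il1b: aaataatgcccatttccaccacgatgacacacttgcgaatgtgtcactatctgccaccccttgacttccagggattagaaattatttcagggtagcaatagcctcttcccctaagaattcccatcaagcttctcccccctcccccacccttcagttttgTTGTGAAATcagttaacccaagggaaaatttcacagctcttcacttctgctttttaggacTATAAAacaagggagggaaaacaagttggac
Il6: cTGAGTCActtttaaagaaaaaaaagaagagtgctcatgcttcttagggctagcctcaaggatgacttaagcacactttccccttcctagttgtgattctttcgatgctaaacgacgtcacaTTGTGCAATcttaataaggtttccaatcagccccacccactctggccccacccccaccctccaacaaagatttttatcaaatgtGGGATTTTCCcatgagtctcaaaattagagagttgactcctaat
Ptgs2: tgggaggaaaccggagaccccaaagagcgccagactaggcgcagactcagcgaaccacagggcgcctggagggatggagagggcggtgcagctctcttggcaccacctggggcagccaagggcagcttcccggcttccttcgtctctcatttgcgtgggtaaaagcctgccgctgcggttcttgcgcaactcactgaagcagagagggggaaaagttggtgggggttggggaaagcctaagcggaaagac
The Il1b window held a TATA box from -31 to -26 and a C/EBP match from -91 to -83, counted from the start used. The Il6 window held an NF-κB match from -44 to -35, a C/EBP match from -128 to -120 and an AP-1 match from -249 to -243. The Ptgs2 window held none of these letters, and no match says only that. No match overlapped another motif. Among 32851 windows of this length before annotated starts, 12.4% held the TATA letters, 10.2% the C/EBP letters, 6.75% the AP-1 letters and 7.25% the NF-κB consensus. A match describes the sequence and is not a binding site.

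No member passed the threshold of an adjusted p of 0.05 in limma over all genes tested, where 0.00675% of the genes did (1 of 14814, Retnla). Of the 7 tested, 2 members, Il1b and Ptgs2, had an unadjusted limma p under 0.05, beside 9.63% of all genes. Both were lower with rIL-33, beside 5.24% of all genes, and 0 members were higher, beside 4.39%. These 2 were also the members in which all 4 rIL-33 arrays lay below all 4 PBS arrays, which held for 2.13% of all genes tested and for 1.93% with dim genes included. The opposite, all rIL-33 arrays above, held for 0 members and 2.44% of all genes tested. The counts of 2 include Il1b, whose rIL-33 mean lay under the dim cut-off and which was tested through its PBS arrays. A dim filter at the 50th percentile left Il1b out, and 1 member then had an unadjusted limma p under 0.05. Of the 7 tested members 6 were lower with rIL-33, by any amount, beside 52% of all genes, and of all 10 members 9 were, beside 54.3% with dim genes included. The median difference of the 7 was -0.20, beside -0.0055 over all genes tested. Because the members were chosen with earlier results of these data known, these shares describe the members and do not test them.

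**Figure D1:**
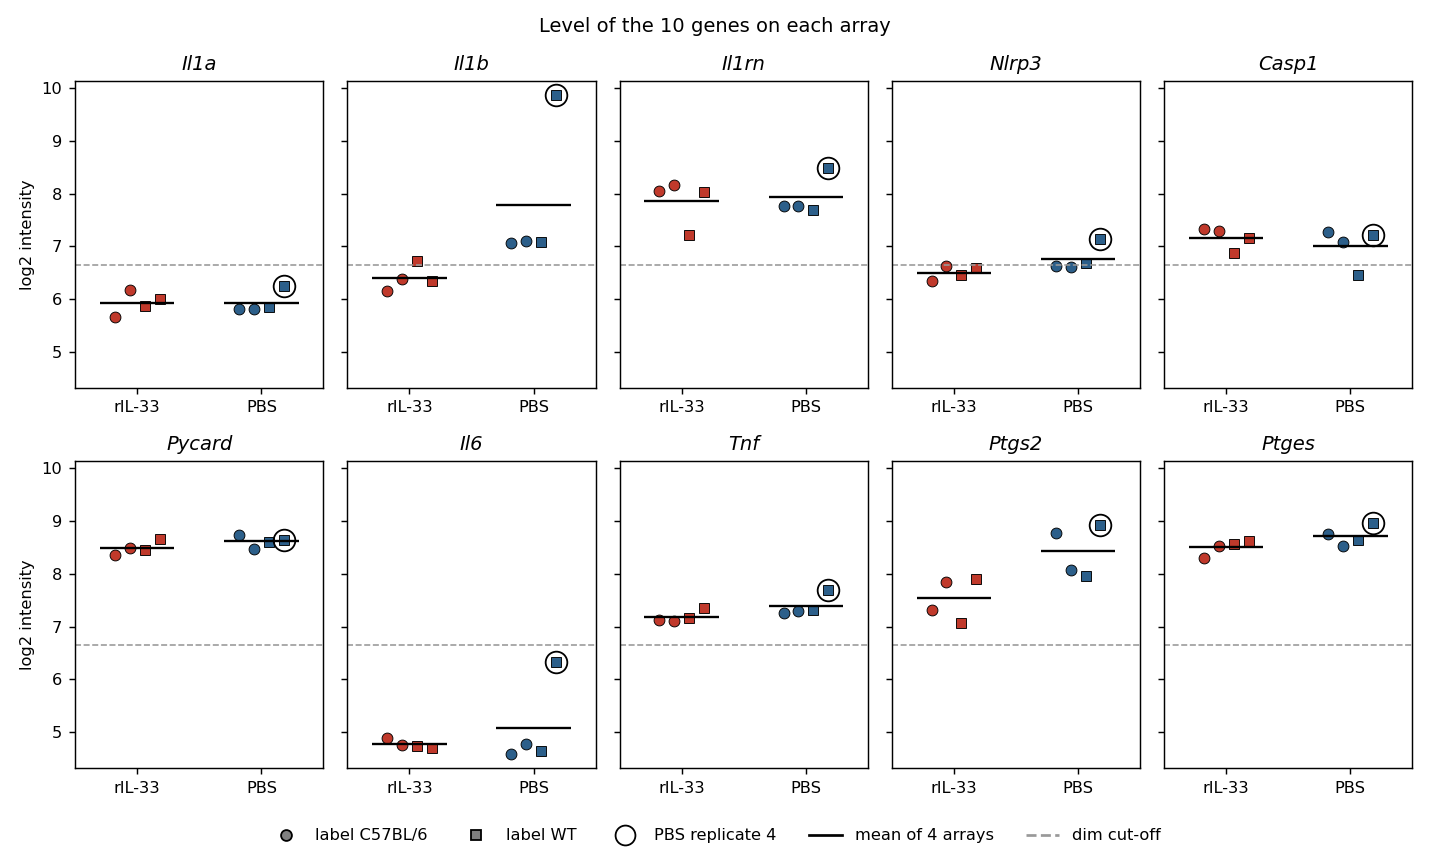
Levels of the 10 genes on each array (y axis, log2 intensity), rIL-33 left and PBS right, with circles for the label C57BL/6, squares for the label WT, a ring around PBS replicate 4, a bar at the mean of 4 arrays and a dashed line at the dim cut-off of 6.65. Il1b and Ptgs2 show no overlap between the groups, and the ringed array is the highest of all 8 in 8 of the 10 genes.

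Among the IL-1 ligands, Il1b, which encodes IL-1β, had levels of 6.16, 6.39, 6.72 and 6.35 on rIL-33 arrays 1 to 4, against 7.06, 7.11, 7.09 and 9.86 on PBS arrays 1 to 4. The rIL-33 arrays all lay below the PBS arrays, and PBS replicate 4 stood far above the other 3, which were within 0.05 of each other. The group levels were 6.40 ± 0.23 with rIL-33 and 7.78 ± 1.39 with PBS (log2 intensity, SD, n = 4 each). Il1b differed by -1.38 (SE 0.54, limma unadjusted p = 0.0286, adjusted p = 0.489), which is 0.385-fold, the lowest difference of the 14814 genes tested. The exact two-sided permutation p over the 70 assignments of the arrays was 0.0286, the smallest they can give. Its rIL-33 mean was below 6.65, the value that marks dim genes, and Il1b was tested through its PBS arrays.

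The size of the Il1b difference rested on 1 array and its direction did not. Without PBS replicate 4 Il1b differed by -0.68 (SE 0.12, limma unadjusted p = 0.000298, adjusted p = 0.640) and ranked 20 from the lowest, and 2.83% of all genes tested were then lower at an unadjusted p under 0.05. The rIL-33 arrays still lay below the remaining PBS arrays, as they did in 2.7% of all genes tested without that array. Within the C57BL/6-labelled arrays, which do not include PBS replicate 4, the difference was -0.81 (SE 0.12), and within the WT-labelled ones it was -1.94 (SE 0.72). The effects within the labels differed by -1.13 (SE 0.95, limma unadjusted p = 0.263, adjusted p = 0.999). Leaving out rIL-33 replicate 1, 2 or 4 instead left differences of -1.29, -1.37 and -1.36, with unadjusted limma p-values of 0.0615, 0.0510 and 0.0523.

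Il1a, the gene of the sister cytokine IL-1α that is active without inflammasome cleavage, was dim. Its levels were 5.67, 6.17, 5.86 and 6.00 on the rIL-33 arrays, against 5.81, 5.81, 5.85 and 6.25 on the PBS arrays. The groups overlapped, and the difference of -0.0021 (SE 0.13, from the fit of all genes without the dim filter) was smaller than the spread within either group. The highest array was again PBS replicate 4.

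Il1rn encodes the IL-1 receptor antagonist and did not follow Il1b. It had levels of 8.06, 8.16, 7.22 and 8.03 on the rIL-33 arrays, against 7.76, 7.77, 7.70 and 8.48 on the PBS arrays. The groups overlapped, with rIL-33 replicate 3 the lowest and PBS replicate 4 the highest of all arrays, and the difference was -0.06 (SE 0.22, limma adjusted p = 0.961). Within the C57BL/6-labelled arrays Il1rn was higher with rIL-33 by 0.34 (SE 0.10, limma unadjusted p = 0.0101, adjusted p = 0.821) and within the WT-labelled ones it was lower, the difference being -0.46. The difference between these effects was -0.80 (SE 0.39, limma unadjusted p = 0.0724, adjusted p = 0.999). None of the 7 tested members had an unadjusted p under 0.05 for this difference between the labels, beside 3.19% of all genes.

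The log2 difference Il1b minus Il1rn was taken within each array, as the agonist beside its antagonist. It was -1.90, -1.77, -0.51 and -1.68 on the rIL-33 arrays, against -0.70, -0.66, -0.61 and 1.39 on the PBS arrays. In 3 of the 4 rIL-33 arrays it lay below every PBS array, and rIL-33 replicate 3 lay among the PBS arrays. Its mean was -1.46 ± 0.64 with rIL-33 and -0.15 ± 1.02 with PBS (SD, n = 4 each), a difference of -1.32, or -0.81 without PBS replicate 4. Different probe sets have different brightness, so the values themselves do not give a ratio of transcripts. Only the shift between groups bears on an unequal change of the 2 genes, and that shift was not tested.

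The inflammasome genes differed less than Il1b. Nlrp3, the gene of the sensor, was dim by a small margin, with levels of 6.34, 6.62, 6.46 and 6.59 on the rIL-33 arrays, against 6.62, 6.61, 6.68 and 7.14 on the PBS arrays. Its groups met at the edge, the highest rIL-33 array lying between the 2 lowest PBS arrays, and it differed by -0.26 (SE 0.12, limma adjusted p = 0.649 without the dim filter) or by -0.14 without PBS replicate 4. Casp1, which encodes the protease caspase-1, was the 1 member with a higher mean with rIL-33.

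Casp1 had levels of 7.33, 7.29, 6.87 and 7.16 on the rIL-33 arrays, against 7.27, 7.08, 6.46 and 7.21 on the PBS arrays. In both groups replicate 3 was the lowest array, and the groups overlapped over most of their range. The difference was 0.16 (SE 0.17, limma adjusted p = 0.808), and without PBS replicate 3 it was -0.023. Pycard, the gene of the adaptor ASC, had levels of 8.36, 8.48, 8.44 and 8.67 on the rIL-33 arrays, against 8.72, 8.48, 8.60 and 8.64 on the PBS arrays. These groups overlapped as well, and the difference was -0.12 (SE 0.09, limma adjusted p = 0.660). Casp1 and Pycard were the members in which PBS replicate 4 was not the highest array.

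The cytokine genes Il6 and Tnf stood out on PBS replicate 4 and little elsewhere. Il6, a cytokine with roles in inflammation and in muscle growth, was dim, with levels of 4.89, 4.76, 4.75 and 4.70 on the rIL-33 arrays, against 4.59, 4.77, 4.64 and 6.33 on the PBS arrays. It differed by -0.31 (SE 0.32, limma adjusted p = 0.889 without the dim filter) and by 0.11 without PBS replicate 4, so that its direction hung on that array. Tnf, which encodes tumour necrosis factor, had levels of 7.12, 7.11, 7.16 and 7.36 on the rIL-33 arrays, against 7.25, 7.29, 7.31 and 7.69 on the PBS arrays. Only rIL-33 replicate 4 reached into the range of the PBS arrays, and Tnf differed by -0.20 (SE 0.11, limma adjusted p = 0.570), or by -0.09 without PBS replicate 4.

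Ptgs2, the inducible cyclooxygenase gene, was lower with rIL-33 in a way that did not hang on 1 array. Its levels were 7.31, 7.85, 7.06 and 7.91 on the rIL-33 arrays, against 8.78, 8.07, 7.95 and 8.93 on the PBS arrays. The groups did not overlap, the closest pair being rIL-33 replicate 4 and PBS replicate 3. The group levels were 7.53 ± 0.41 with rIL-33 and 8.43 ± 0.49 with PBS (SD, n = 4 each), a difference of -0.90 (SE 0.25, limma unadjusted p = 0.00500, adjusted p = 0.489), which is 0.537-fold. It ranked 9 from the lowest of the 14814 genes tested, and its exact two-sided permutation p was 0.0286, the smallest possible. The difference lay between -1.06 and -0.73 with each array left out in turn, and was -0.84 for the label C57BL/6 and -0.96 for the label WT.

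Ptges, the gene of the inducible prostaglandin E synthase that works downstream of this cyclooxygenase, differed less. It had levels of 8.30, 8.53, 8.56 and 8.62 on the rIL-33 arrays, against 8.75, 8.53, 8.64 and 8.96 on the PBS arrays. The groups overlapped, rIL-33 replicates 3 and 4 lying above PBS replicate 2, and Ptges differed by -0.22 (SE 0.11, limma unadjusted p = 0.0635, adjusted p = 0.527). The differences within the labels were near each other, -0.23 for C57BL/6 and -0.21 for WT, and without PBS replicate 4 it was -0.14.

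**Figure D2:**
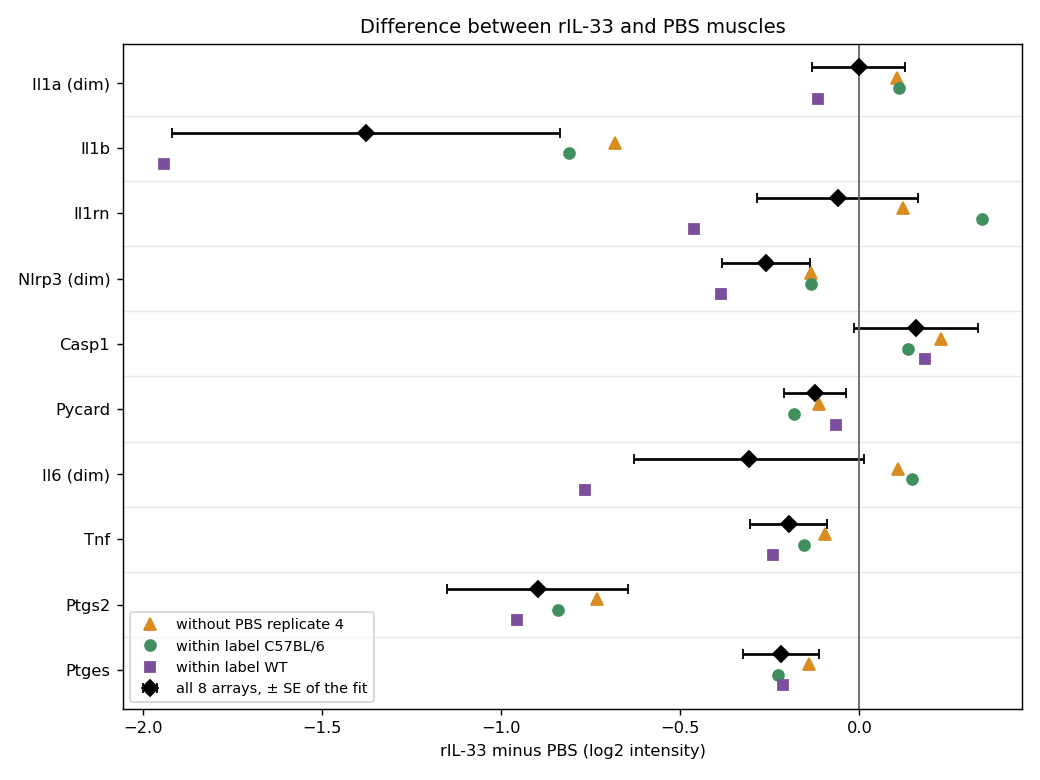
Difference rIL-33 minus PBS of each of the 10 genes (x axis, log2 intensity), over all 8 arrays with the standard error of the fit, without PBS replicate 4, and within each genetic background label. Il1b moves from -1.38 to -0.68 without that array, Ptgs2 stays between -0.96 and -0.73 in all settings drawn, and Il1a, Il1rn and Il6 change sign.

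PBS replicate 4 was the highest of the 4 PBS arrays in 8 of the 10 genes, beside 18.4% of all 19752 genes and 20.1% of those tested. In the same 8 genes it was also the highest of all 8 arrays. In 6 genes, Il1a, Il1b, Il1rn, Nlrp3, Il6 and Tnf, it also lay past Dixon's 95% critical value for 4 samples, which held for 0.496% of all genes and 0.587% of those tested. Any PBS array was past that value in 3.72% of the genes tested. On the rIL-33 side, replicate 3 was low and past it in Il1rn, as it was in 0.864% of the genes tested. Against the mean of the other PBS arrays PBS replicate 4 was higher by 2.78 on the log2 scale in Il1b, 1.67 in Il6 and 0.73 in Il1rn. This excess was 0.66 in Ptgs2 and 0.04 in Pycard, the lowest of the 10. In Casp1 this excess was 0.28, and the level of PBS replicate 4 lay within the range of the other PBS arrays. Without PBS replicate 4, 6 of the 10 genes were lower with rIL-33 and the median difference of the 10 was -0.10; with all arrays it was 9 of 10 and -0.21.

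Several markers of neutrophils, cells that make IL-1β, were also high on that array. It was the highest PBS array in 5 of the 7 tested markers, beside 20.1% of all genes tested. In the tested Ngp and Mpo and in the dim Camp, Ltf and Retnlg, PBS replicate 3 was higher. Being highest on PBS replicate 4 was not particular to neutrophil markers. Among the PBS arrays it was highest in 9 of 11 tested monocyte and macrophage markers and in 13 of 18 tested genes of the NF-κB list below. In 6 fibroblast markers it was highest in 3, and in 10 muscle markers in 1. Of the 14 neutrophil markers 7 were tested and none passed the threshold. All 7 were lower with rIL-33, beside 52% of all genes tested. Their median difference was -0.50, or -0.15 without PBS replicate 4. The other 7 were dim, among them Ly6g, S100a8 and Cxcr2, and of these Retnlg was higher with rIL-33, by 0.34 (SE 0.16). Without PBS replicate 4 the alarmin gene S100a9, the dim Ly6g and the lipocalin gene Lcn2 were higher too, by 0.08, 0.049 and 0.0085. Retnlg, S100a9, Ly6g, Lcn2, Mpo, Camp and Ltf are named after their values were seen. The summed intensity of the 14 was 1464 to 1783 on the rIL-33 arrays, against 1473, 1501, 2800 and 4636 on PBS arrays 1 to 4. PBS replicate 3, second in this sum among the PBS arrays, had Il1b at the level of PBS replicates 1 and 2. The mean neutrophil marker level was 6.46 to 6.72 on the rIL-33 arrays, against 6.40 and 6.47 on PBS replicates 1 and 2. Mmp9, which encodes a gelatinase, differed by -0.64 (SE 0.25) and the granule gene Ngp by -0.94 (SE 0.62), with -0.39 and -0.65 without PBS replicate 4, and Ngp by -0.33 without PBS replicate 3. All 4 rIL-33 arrays and PBS replicates 1 and 2 had Ngp under 6.65, so it was tested through PBS replicates 3 and 4. Ngp differed by 0.24 for the label C57BL/6 and by -2.11 for WT. The part of neutrophils in the Il1b, Il6, Tnf and Il1rn values was not tested.

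Markers of monocytes and macrophages were mixed. Of the 12, 11 had a value and were tested. With rIL-33 9 were lower, beside 52% of all genes tested, and 2 higher, with a median difference of -0.22 and none past the threshold. Their median difference was -0.14 without PBS replicate 4. Their summed intensity was 11459 to 15438 on the rIL-33 arrays, against 14616 to 17754 on the PBS arrays. Adgre1, an adhesion receptor gene of macrophages, differed by -0.44 (SE 0.15), and Fcgr1, which encodes an antibody receptor, by -0.55 (SE 0.17). The scavenger receptor gene Cd163 was higher with rIL-33, by 0.27 (SE 0.11, limma unadjusted p = 0.0373), and Mertk and Ccr2 differed by 0.00052 and -0.0048; these 3 are named after their values were seen. All 6 fibroblast markers were lower too, each at an unadjusted limma p under 0.05, beside 5.24% of all genes tested. Their summed intensity was 15730 to 19684 on the rIL-33 arrays, against 21873 to 25082 on the PBS arrays. The part of macrophages and fibroblasts in the Ptgs2 value was not tested. The median of the fibroblast markers was -0.37, with Lum at -0.76 (SE 0.15) and Dpt at -0.61 (SE 0.15). The medians were -0.11 over 5 endothelial markers (Emcn -0.32, Cdh5 -0.23), -0.25 over 4 tested mast cell markers (Cpa3 -0.38, Mcpt4 -0.33) and 0.06 over the 10 muscle markers (Myh2 0.17, Tnnc2 0.16).

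**Figure D3:**
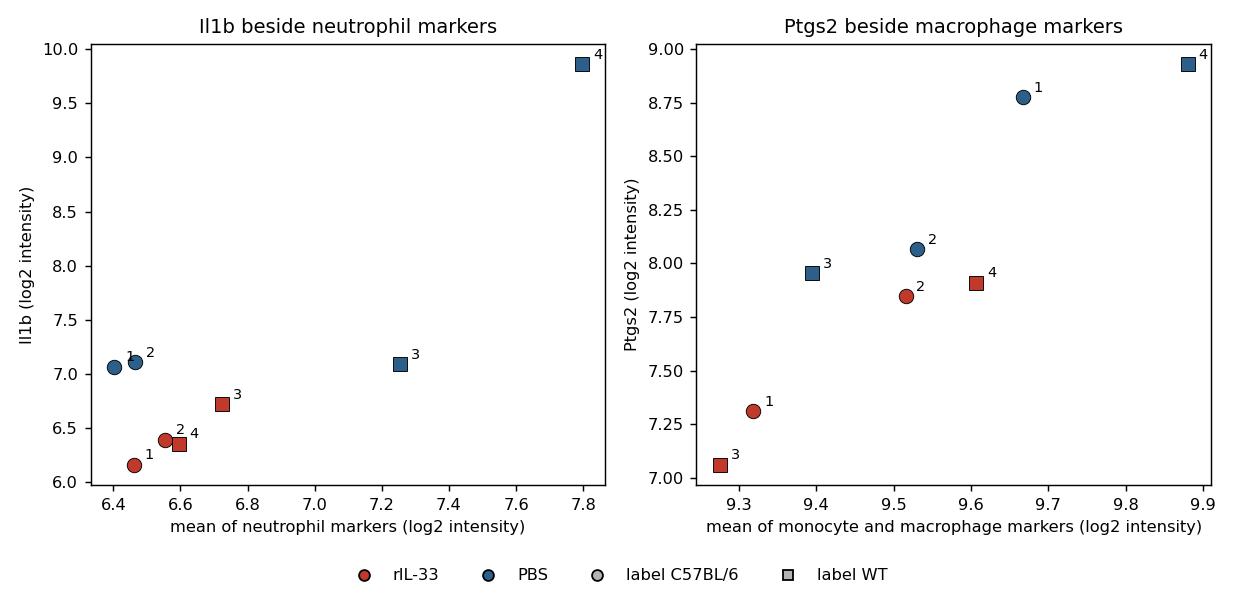
Level of Il1b against the mean of the neutrophil markers (left) and of Ptgs2 against the mean of the monocyte and macrophage markers (right), all in log2 intensity, 1 point per array, numbered by replicate, red for rIL-33 and blue for PBS, circles for the label C57BL/6 and squares for the label WT. PBS replicate 4 lies alone at the upper right of the left plot, and PBS replicate 3 has a high neutrophil mean with Il1b at 7.09.

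The genes with profiles most like that of Il1b over the 8 arrays were Il17ra (Pearson r = 0.987), Csf3r (0.984), Steap4 (0.982), Ifitm1 (0.979) and Siglece (0.960). Csf3r, the receptor of granulocyte colony-stimulating factor, stands in the neutrophil list. These are descriptions over arrays that share the high PBS replicate 4. Without it, over 7 arrays, the nearest were Nxt1 (0.957), Mdfi (0.952), Il17ra (0.951), Nipal3 (0.951) and Cyp2f2 (0.938). Il17ra, which encodes a receptor of interleukin 17, was the 1 gene in both sets. Over all 8 arrays r with Il1b was 0.55 for Nxt1, 0.25 for Mdfi, -0.31 for Nipal3 and 0.72 for Cyp2f2. These genes were picked as the nearest of all genes tested, so high r values come with the choice.

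The profile of Ptgs2 was nearest to those of Faap24 (Pearson r = 0.990), Adgre1 (0.990), Ube2q1 (0.988), the collagen gene Col3a1 (0.986) and Tspan4 (0.985) over 8 arrays. Adgre1 had levels of 9.82, 10.16, 9.68 and 10.23 on the rIL-33 arrays, against 10.52, 10.24, 10.20 and 10.69 on the PBS arrays. As with Ptgs2, rIL-33 replicate 3 was its lowest and PBS replicate 4 its highest array. Without PBS replicate 4 the nearest were Lasp1 (0.997), Ergic3 (0.992), Ephb4 (0.991), Spata13 (0.988) and Pdgfrl (0.988), over 7 arrays.

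Among the members themselves, Il1b and Il6 had r = 0.90 over 8 arrays and -0.65 over the 7 without PBS replicate 4. Il1b and Ptgs2 had 0.71 and 0.54, and Ptgs2 and Ptges 0.82 and 0.70. The likeness of Il1b and Il6 thus rested on 1 array.

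The rest of the pathway was read from lists of other genes, none of which held a gene past the threshold. Of all genes tested 52% were lower with rIL-33 and 9.63% had an unadjusted limma p under 0.05. These shares stand beside the counts of every list below. Of 18 genes for IL-1 receptors and their adaptors, 15 were tested, 7 higher and 8 lower, with a median difference of -0.021. Myd88, the adaptor that carries the IL-1 signal, had levels of 8.98, 9.31, 9.20 and 9.37 on the rIL-33 arrays, against 9.61, 9.32, 9.49 and 10.08 on the PBS arrays. It differed by -0.41 (SE 0.15, limma unadjusted p = 0.0222, adjusted p = 0.489), or by -0.26 without PBS replicate 4, and the groups overlapped narrowly. The ubiquitin ligase gene Traf6, named after its value was seen, was the other gene of the list at an unadjusted p under 0.05, higher by 0.17 (SE 0.06). Il1r2, the decoy receptor, had an rIL-33 mean of 6.53, under the cut-off, against a PBS mean of 6.93, and was tested through PBS replicate 4, where it was 8.08. It differed by -0.40 (SE 0.31) and by -0.014 without that array, and Irak3, an inhibitory kinase, by -0.24 (SE 0.13), or -0.10 without it.

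Of 21 inflammasome sensors, regulators and substrates, 18 were tested, 9 higher and 9 lower, with a median of -0.019. Il18, the other cytokine that caspase-1 releases, had levels of 7.15, 7.50, 6.95 and 7.41 on the rIL-33 arrays, against 7.60, 7.48, 7.59 and 8.06 on the PBS arrays. It differed by -0.43 (SE 0.15, limma adjusted p = 0.489), the same direction as Il1b, with PBS replicate 2 inside the rIL-33 range. Nek7, a kinase that binds NLRP3, was higher with rIL-33 on all 4 arrays than on any PBS array, by 0.23 (SE 0.09, limma adjusted p = 0.489). The protease gene Casp8 differed by -0.30 (SE 0.14).

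Of 14 other genes of prostaglandin synthesis and breakdown 13 were tested, 5 higher and 8 lower, with a median of -0.019. Hpgds, the haematopoietic synthase of prostaglandin D2, had levels of 8.74, 9.23, 8.61 and 9.16 on the rIL-33 arrays, against 9.46, 9.39, 9.38 and 9.64 on the PBS arrays. All rIL-33 arrays lay below all PBS arrays, and Hpgds differed by -0.53 (SE 0.14, limma unadjusted p = 0.00305, adjusted p = 0.489), or by -0.47 without PBS replicate 4. Hpgd, the dehydrogenase that inactivates prostaglandin E2, was lower with rIL-33 as well, with levels of 8.53, 8.70, 8.27 and 8.46, against 9.14, 9.36, 8.67 and 8.80 on the PBS arrays. It differed by -0.50 (SE 0.15, limma adjusted p = 0.489), with rIL-33 replicate 2 just above PBS replicate 3. Pla2g4a, a phospholipase that frees the substrate of the cyclooxygenases, differed by -0.30 (SE 0.14). Another phospholipase gene, Pla2g5, and another prostaglandin E synthase gene, Ptges2, both named after their values were seen, were higher, by 0.16 (SE 0.11) and 0.15 (SE 0.14).

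Of 9 prostanoid receptor genes 8 were tested, 7 lower and 1 higher, with a median of -0.10. Ptgfr, the prostaglandin F receptor, differed by -0.35 (SE 0.15) and by -0.18 without PBS replicate 4. Tbxa2r, the thromboxane receptor, differed by -0.17 (SE 0.12), and Ptger1, one of the prostaglandin E receptors, by -0.15 (SE 0.08).

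Of 14 genes for IL-6 and TNF receptors and their first signalling steps 12 were tested, 10 lower and 2 higher, with a median of -0.11 and none at an unadjusted p under 0.05. The largest differences were those of Socs3, a feedback inhibitor induced by IL-6 (-0.25, SE 0.13), of the TNF receptor gene Tnfrsf1a (-0.24, SE 0.12) and of the oncostatin M receptor gene Osmr (-0.20, SE 0.14). Of 22 NF-κB subunits and induced genes 18 were tested, 16 lower and 2 higher, with a median of -0.14, beside -0.0055 over all genes. The chemokine gene Ccl3 differed by -0.73 (SE 0.32), which was -0.28 for the label C57BL/6 and -1.18 for the label WT. Ier3, an early response gene, had levels of 7.02, 7.49, 7.49 and 7.54 on the rIL-33 arrays, against 7.86, 7.78, 7.64 and 7.96 on the PBS arrays. All its rIL-33 arrays lay below its PBS arrays, by a mean difference of -0.42 (SE 0.12, limma adjusted p = 0.489), while Zfp36, which encodes a protein that destabilises cytokine mRNAs, differed by -0.25 (SE 0.14).

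Without PBS replicate 4 the medians of the lists were -0.014 for IL-1 receptors and adaptors, 0.0057 for the inflammasome, 0.0014 for prostaglandin synthesis and breakdown, -0.067 for prostanoid receptors, -0.050 for IL-6 and TNF receptors and -0.11 for NF-κB, beside -0.0035 over all genes tested.

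**Figure D4:**
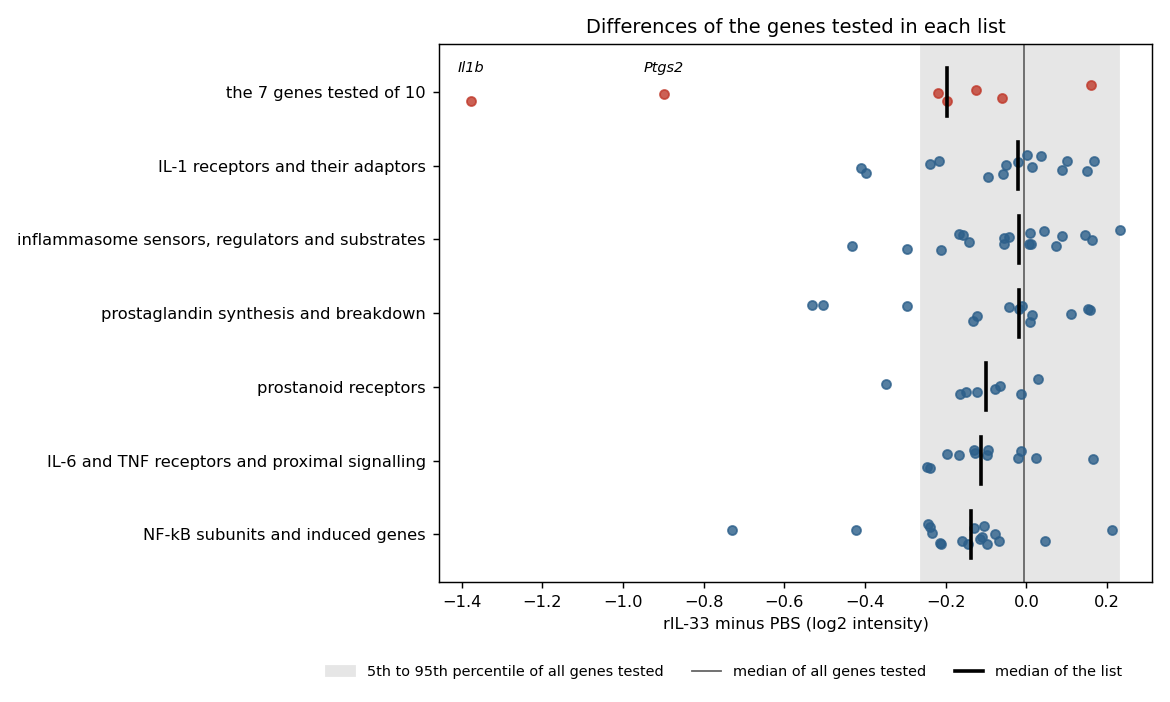
Difference rIL-33 minus PBS (x axis, log2 intensity) of each gene tested, for the 7 tested members and the 6 pathway lists, with a bar at each list's median and a grey band from the 5th to the 95th percentile of all genes tested. Il1b and Ptgs2 lie far to the left of the band from -0.26 to 0.23, and the list medians lie inside it.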

How the data were processed

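The deposited value of each probe set is an intensity on a linear scale, made by the authors; per the submitters' processing notes the tools were RMA and Affymetrix Power Tools, of unstated version. RMA subtracts background, forces all arrays to a common distribution and summarises probes, which draws extreme arrays towards the others. Log2 of the deposited intensity was taken. Of 24922 probe sets, 21425 had 1 gene symbol in the platform annotation, 1399 had several and 2098 were unnamed here; for each of 19752 genes the one-symbol probe set of highest mean was used. Genes under the 25th percentile (log2 6.65) were left out, leaving 14814.

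The test was limma 3.58.1 (lmFit, eBayes; R 4.3.3) over the 8 arrays, with Benjamini-Hochberg adjustment over all genes tested. The script was tested on simulated data. The members and lists were chosen with earlier results of these data known. Named were the members, the 3 genes of largest difference per pathway list (2 per marker list), and the 5 genes nearest in profile to Il1b and to Ptgs2; Adgre1 stands there and among the markers. Ptgs1, Il1r1, Irak4, Chuk, Nlrp12, Ripk1, Nfkb1 and Ly6c2 were not analysed here, so a planned comparison of Ptgs2 with Ptgs1 was not made. Sequences are RefSeq's. Python 3.11.15 and matplotlib 3.10.9 made the figures. The alternatives tried were other normalizations, dim filters, eBayes settings, array weights, blocks, labels, probe set means, an added intensity of 16, a threshold of 0.1 and each array left out.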

Additional observations from a re-analysis of the deposited data

Results flagged for a closer look

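Arrays far from the other 3 of their group were looked for in each of the 10 genes and both groups, 20 checks in all, and 7 were past Dixon's 95% critical value for 4 samples (0.829), which chance passes in about 1 of 20 groups. In 6 of them PBS replicate 4 was the high array. Its log2 intensity was 9.86 in Il1b, 6.33 in Il6, 8.48 in Il1rn, 6.25 in Il1a, 7.14 in Nlrp3 and 7.69 in Tnf. Among all genes tested, 0.587% had this array high and past that value, and 3.72% had any PBS array past it. The other was rIL-33 replicate 3, low in Il1rn at 7.22, which in 0.864% of all genes tested was the low array past that value.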

How the results depend on the processing

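The members past the threshold numbered 0 in every setting run. Of 201 comparisons of a member with its value under another setting, 187 kept the direction and 14 did not, and for the other named genes 994 of 997 did. Il1b, Nlrp3, Pycard, Tnf, Ptgs2 and Ptges kept their direction in all settings run. Il1a (-0.0021) was 0.018 after quantile and 0.020 after cyclic loess normalization, 0.037 with array weights and 0.11 within the C57BL/6-labelled arrays, and lay between -0.083 and 0.10 with an array left out. Il1rn (-0.06) was 0.016 with array weights, 0.34 within the C57BL/6-labelled arrays and -0.16 to 0.15 with an array left out. Casp1 lay between -0.023 and 0.26 with an array left out, and Il6 between -0.47 and 0.11, with 0.15 within the C57BL/6-labelled arrays. Ngp was 0.24 within the C57BL/6-labelled arrays, Myh2 -0.13 and Nipal3 0.020 within the WT-labelled ones. The causes were not tested.

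Members at an unadjusted limma p under 0.05 numbered 2, but 1 with a dim filter at the 50th percentile, which left Il1b out, 3 with labels as blocks (Ptges added), 3 for the label C57BL/6 alone (Il1rn added, higher with rIL-33) and 1 to 3 with an array left out. Genes past the threshold numbered 1, but 2 for the label C57BL/6 alone and 4 for WT alone, and 1 to 2 with an array left out. Genes at an unadjusted p under 0.05 numbered 1427, but 804 with array weights, 784 for the label C57BL/6 alone, 2244 with labels as blocks, and 638 to 1892 with an array left out (638 without rIL-33 replicate 1, 825 without rIL-33 replicate 3, 791 without PBS replicate 4). With the replicate number as a block there were 0 genes past the threshold, 2327 genes and 4 members at an unadjusted p under 0.05. Deviations of same-numbered arrays from their group means correlated at 0.44, -0.19, 0.43 and 0.54 over genes. Not every array correlated best with its own number, and the numbers were not taken to pair the samples. Between rIL-33 and PBS arrays of the same label these correlations lay from -0.19 to 0.63. Between arrays of unlike labels they lay from -0.60 to 0.027. The main fit held no term for the label. Signal over background limits Il1a, Nlrp3 and Il6, which were dim, and Il1b, Il1r2 and Ngp on the rIL-33 arrays. It also limits Il1r2 and Ngp on PBS replicates 1 and 2, where both lay under 6.65.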
